A study of Mus musculus with 12 samples.

Results

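The genes described here encode the phase II transferases that couple glutathione, glucuronic acid or sulfate to other molecules: the glutathione S-transferases (GST, including the microsomal Mgst genes), the UDP-glucuronosyltransferases (UGT) and the sulfotransferases (SULT). They were chosen by symbol, and a gene was kept where its estimated count reached 10 in at least 3 libraries. Of 16239 genes with a symbol, 59 had a matching symbol and 46 reached that level: 22 GST, 17 UGT and 7 SULT genes in 14 families. The rule itself used no difference between groups, but it was set with earlier results of these data known. All 46 were among the 12587 genes tested, and 37 had 10 or more estimated counts in all 12 libraries.

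The study measured RNA in whole liver of mice of strain 129/B6 at 10 months of age, after 8 months on a diet abbreviated LF or HF in the labels. Its title places it in work on thrombospondin 1 (TSP1, gene Thbs1) from macrophages and fatty liver disease in obesity. The 4 groups of 3 libraries were LF floxed and HF floxed (floxed TSP1, with the genotype also labelled WT) and LF knockout and HF knockout (TSP1 deleted in macrophages). The Cre driver that removed the gene is not given in the sources used here, and the deletion leaves TSP1 in the other cells of the liver.

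Conjugation makes lipophilic drugs, hormones, bilirubin and products of lipid peroxidation more soluble and ready for export. GST enzymes join them to glutathione, UGT enzymes of the endoplasmic reticulum join them to glucuronic acid from UDP-glucuronate, and SULT enzymes of the cytosol add sulfate from the donor PAPS. Hepatocytes hold most of these enzymes, many of them more on the pericentral side of the lobule, and nuclear factors such as Nrf2 (Nfe2l2), CAR (Nr1i3) and PXR (Nr1i2) are known to raise several of the genes. In mouse liver the pi-class GST genes are known to be higher in males, and several Sult2a genes and Sult3a1 to be higher in females.

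Libraries held 16131506 to 16536016 estimated counts. LF knockout replicates 2 and 3 were near-identical, and so were HF floxed replicates 1 and 2: the SD of the log2 ratio between their genes was 0.238 and 0.322, against 0.539 to 1.52 in the other pairs within a group. They still differed by more than sampling noise and were counted separately. If a pair came from 1 animal, p-values that use it would be too small. The files of HF floxed replicate 3 and HF knockout replicate 1 are named in another form than the rest. Replicates are numbered with no animal named, so the p-values rest on the spread of these libraries, part of which can be technical. Thbs1 lay between 0.06 and 0.11 FPKM in LF floxed, 0.31 and 0.75 in HF floxed, 0.08 and 0.55 in LF knockout and 0.16 and 1.63 in HF knockout, so the knockout and floxed ranges overlapped on both diets. Other cells contribute to that level, and it does not check the labels.

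HF knockout replicate 2 stood apart, and many of the results that use HF knockout are also given without it. Its fetal liver genes Afp (29.98 FPKM) and Gpc3 (101.49) lay above the 0.09 to 0.61 and 0 to 0.89 of the other 11 libraries. The 10 pericentral marker genes summed to 44.6 FPKM there and to between 2400 and 5990 in the others, with Cyp2e1 at 27.5 against 1677 or more and Glul at 10.97 against 253 or more. The 9 periportal marker genes were low as well, at 806 FPKM against 2620 to 3940. The 5 hepatocyte genes summed to 103000 FPKM against 39400 to 71900. Of these, albumin (Alb, 72054 against 43610 or less) and Apoa1 (22760 against 13090 or less) were highest in this library. Ttr (3334 against 5076 or more) and Tat (59.6 against 169 or more) were lowest, and Serpina1c (4894) lay within the range of the others. Without Alb and Apoa1 the other 3 summed to 8290, against 8130 to 17700. The 5 cholangiocyte markers summed to 755 FPKM against 21.8 to 109, of which 743 came from Spp1, which other cells also express. Krt19 (0.92) and Krt7 (0.96) lay within the range of the other libraries, and Sox9 (7.63) and Epcam (2.25) above it. HF knockout replicate 3 differed in another way. Its 5 neutrophil markers summed to 386 FPKM against 1.94 to 10.8 in the other libraries, and to 22.5 against 0.42 to 2.22 without S100a9 and S100a8. Its 5 macrophage markers summed to 230 against 37.3 to 130. Fits without replicate 2 still hold this library. The part of the shifts in replicates 2 and 3 in the results on the members was not tested.

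Upstream sequences of 5 members are shown: Gsta1 and Gstm3 are the members that DESeq2 called, Gsta3 and Gstp1 are the most abundant genes of their families, and Gstp3 was highest in HF knockout replicate 2. Each is the 250 bases before the gene's start in RefSeq, build GRCm38.p6, at chr9:78230419-78230668 (plus strand) for Gsta1, chr3:107969175-107969424 (minus) for Gstm3, chr1:21240335-21240584 (plus) for Gsta3, chr19:4037913-4038162 (minus) for Gstp1 and chr19:4059448-4059697 (minus) for Gstp3. The authors' files follow mm9, so these positions belong to the reference and not to the files. Capitals mark a match to TGACNNNGC, the core letters of the antioxidant response element, or to TGANTCA, the AP-1 site, searched on both strands.
Gsta1: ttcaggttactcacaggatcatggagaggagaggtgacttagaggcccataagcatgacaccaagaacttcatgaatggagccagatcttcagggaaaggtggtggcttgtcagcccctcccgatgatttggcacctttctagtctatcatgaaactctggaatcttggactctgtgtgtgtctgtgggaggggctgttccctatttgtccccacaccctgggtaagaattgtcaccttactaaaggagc
Gstm3: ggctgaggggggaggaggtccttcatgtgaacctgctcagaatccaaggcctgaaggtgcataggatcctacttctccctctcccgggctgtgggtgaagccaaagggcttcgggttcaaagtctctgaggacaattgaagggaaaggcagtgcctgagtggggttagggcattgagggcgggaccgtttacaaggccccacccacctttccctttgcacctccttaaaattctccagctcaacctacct
Gsta3: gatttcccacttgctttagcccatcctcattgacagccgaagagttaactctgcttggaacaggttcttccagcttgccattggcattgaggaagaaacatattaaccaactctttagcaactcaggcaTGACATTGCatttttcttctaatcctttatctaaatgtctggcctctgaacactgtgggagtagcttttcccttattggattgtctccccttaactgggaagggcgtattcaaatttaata
Gstp1: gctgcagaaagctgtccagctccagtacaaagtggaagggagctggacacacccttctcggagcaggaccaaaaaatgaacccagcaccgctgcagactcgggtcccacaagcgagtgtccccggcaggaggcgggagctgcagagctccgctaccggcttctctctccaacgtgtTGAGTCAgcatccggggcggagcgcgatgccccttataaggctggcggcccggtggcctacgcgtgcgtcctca
Gstp3: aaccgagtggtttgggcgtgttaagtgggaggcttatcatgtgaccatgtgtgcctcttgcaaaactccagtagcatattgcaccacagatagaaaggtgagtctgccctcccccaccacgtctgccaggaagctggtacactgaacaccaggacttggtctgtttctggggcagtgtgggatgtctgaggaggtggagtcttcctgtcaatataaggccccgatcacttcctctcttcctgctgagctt
The Gsta3 window holds TGACATTGC, with its 5′ end 121 bases before the start, and the Gstp1 window holds TGAGTCA, 74 bases before it. Neither motif is in the Gsta1, Gstm3 or Gstp3 window. A window was found for 41 members (51 windows, since some genes have several starts). The first motif was in 7.84% of the members' windows (Gsta3, Gstm5, Gstm7 and Mgst1) and in 10.2% of all 32851 windows of that length. The second was in 15.7% of the members' windows and in 6.75% of all, in Gstp1, Gstp2, Gstm5, Ugt1a6a, Ugt2b1, Ugt2b35, Ugt2b37 and Ugt2b38. A sequence can match both motifs at the same place. These are matches of letters in a short window and say nothing of binding.

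Levels are given as FPKM, the deposited estimate per unit of gene length and of sequenced fragments, which allows genes to be compared. Glutathione transferases made up 83.8 to 89.5% of the members' summed FPKM in each library, UGT genes 8.09 to 12.9% and SULT genes 1.67 to 4.68%. Gstp1 alone averaged 2780 FPKM over the 12 libraries, 24.1% of all members, followed by Mgst1 (2690, 23.3%), Gstm1 (1680, 14.5%) and Gsta3 (832, 7.21%). The most abundant UGT gene was Ugt2b5 at 303 FPKM and the most abundant SULT gene was Sult2a8 at 157. Members together took 1.12 to 2.83% of the FPKM of all named genes.

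Summed GST level was 11290, 8575 and 13820 FPKM in LF floxed replicates 1 to 3, 11070, 10500 and 11980 in HF floxed, 9958, 10440 and 10520 in LF knockout and 8232, 4971 and 8297 in HF knockout. Those last 3 values were the lowest of the 12, and the highest was an LF floxed library. Summed UGT level was 1246, 1200 and 1248 in LF floxed, 1271, 1377 and 1424 in HF floxed, 1331, 1514 and 1480 in LF knockout and 915, 462 and 1276 in HF knockout. Here HF knockout replicates 1 and 2 lay below all others, while replicate 3 lay among the floxed libraries. Summed SULT level overlapped between all groups, and its lowest values, 210, 217 and 203 FPKM, came from HF floxed replicates 1 and 2 and HF knockout replicate 2. Whole liver does not separate fewer hepatocytes from less RNA per hepatocyte, so the 2 cannot be told apart in these sums. The deposited FPKM were also not rescaled between libraries. On log2(FPKM + 0.1) the median difference of all genes was -0.14 for knockout against floxed on HF. For HF against LF in knockout it was -0.058. The part of this shift in the sums was not tested.

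**Figure D1:**
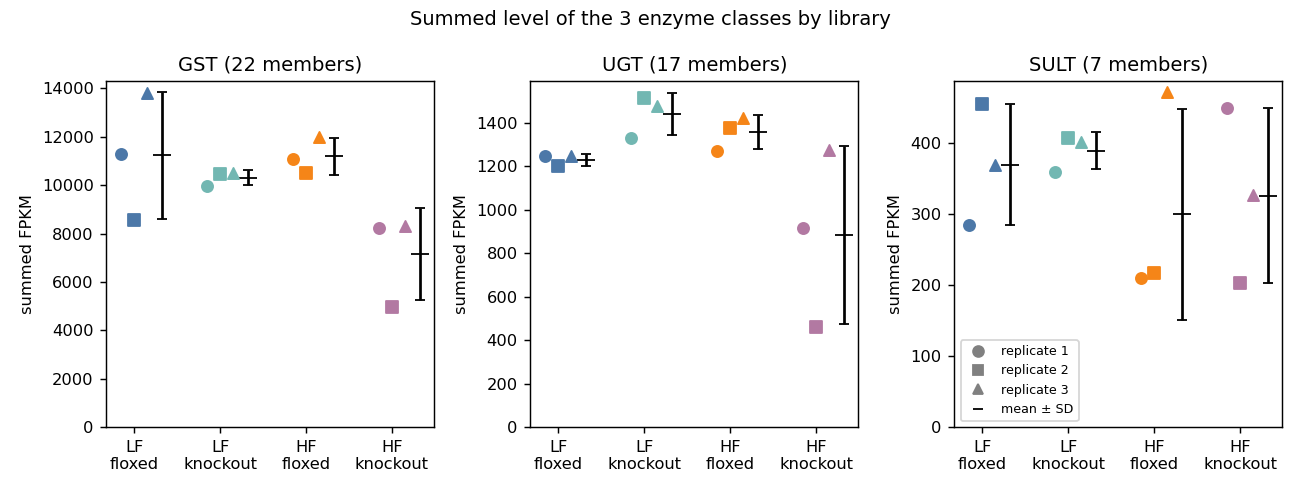
Summed FPKM of the 22 GST, 17 UGT and 7 SULT members (y axes, starting at 0) in each library of the 4 groups (x axes). Markers are replicates and the bar beside each group is the mean ± SD of its 3 libraries: the GST sum of HF knockout is 7170 ± 1900 against 11200 ± 749 in HF floxed, and its lowest point, 4971, is replicate 2.

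With edgeR, no member passed a false discovery rate of 5% in any of the 5 comparisons, so the differences below are sizes and counts, not calls. Of all 12587 genes edgeR called 0, 0, 2 (0.0159%), 0 and 2 (0.0159%) for HF against LF in floxed, HF against LF in knockout, knockout against floxed on LF, knockout against floxed on HF and the diet by genotype interaction. DESeq2 called 254, 126, 34, 69 and 107 of the same 12587 genes in the same order. Among them were 1 of 46 members in the first comparison (Gsta1, DESeq2 adjusted p = 0.0353) and 1 of 46 in the fourth (Gstm3, DESeq2 adjusted p = 0.0491). Comparisons that share a group share its libraries, so they are not independent of each other.

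HF against LF in floxed livers compares the diets in mice labelled without the deletion. At an unadjusted edgeR p under 0.05 were Gsta1 and Ugt1a7c, higher on HF by 3.99 ± 1.13 and 2.39 ± 0.98 (log2 fold change ± SE), Gstm3, higher by 1.81 ± 0.60, and Ugt2b38, at -2.06 ± 0.91. These were 4 members (8.7% of 46, against 12.2% of all genes), 3 higher (against 6.85% of all genes) and 1 lower (against 5.32%), with a smallest adjusted p of 0.263. The members split evenly, 23 higher and 23 lower (49.9% of all genes were higher), with a median log2 fold change of -0.015 beside -0.00067 for all genes. With limma on log2(FPKM + 0.1) the median was 0.222, with that of all genes at 0.24. In FPKM, 13 members had every HF library above every LF library (28.3%, against 23.6% of all genes) and 0 had every one below (against 3.3%). The count of 4 became 2 without HF floxed replicate 1, 8 without HF floxed replicate 3 and 7 without HF knockout replicate 1 or without HF knockout replicate 2. Of all genes 1532 became 894, 1691, 2042 and 2209 in the same fits.

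Among knockout livers most members were lower on HF. The 6 at an unadjusted edgeR p under 0.05 (against 12.2% of all genes) were Gsta2 (-2.05 ± 0.73), Ugt2b5 (-0.94 ± 0.34), Gstm1 (-0.96 ± 0.37), Gstm2 (-0.94 ± 0.37) and Ugt2b34 (-0.59 ± 0.25), all lower on HF, and Gstp3 (1.29 ± 0.48), higher, with a smallest edgeR adjusted p of 0.346. Of all genes 3.38% were lower and 8.81% higher at that threshold. In all, 41 of 46 members were lower, with a median of -0.51 on the log2 scale beside 0.027 for all genes, and 52.9% of all genes were higher. Every HF library was below every LF library in FPKM for 13 members (28.3%, against 5.98% of all genes) and above for 0 (against 5.59%); without HF knockout replicate 2 these counts were again 13 (against 9.51% of all genes) and 0. Without HF knockout replicate 2, 32 of 46 were lower, the median was -0.23 and 3 members had an unadjusted p under 0.05 (Gsta2, Ugt2b5 and Gstm2). All 3 were lower. In that fit 2.64% of all genes were lower and 6.13% higher at that threshold. The count of 6 became 3 and 2 without LF knockout replicate 2 or 3, the near-identical pair, and 13 and 15 without HF knockout replicate 1 or 3. Of all genes 1534 became 1005, 1049, 2544 and 2016 in the same fits.

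Knockout against floxed on LF compares the 2 genotype labels without the HF diet. The 4 members at an unadjusted edgeR p under 0.05 (8.7%, against 5.13% of all genes) were Gsta1 (2.52 ± 1.09) and Ugt1a1 (0.75 ± 0.31), higher in knockout, Gstp2, listed at 0 in LF floxed, and Ugt2b38 (-2.54 ± 0.93). Of all genes 2.58% were higher and 2.55% lower at that threshold, and all 4 members had an edgeR adjusted p of 0.929. Members stood at a median of 0.055 beside -0.019 for all genes, with 28 of 46 higher (47.4% of all genes were higher), and with limma on log2(FPKM + 0.1) at 0.226 beside 0.15. In FPKM 13 members lay wholly above (against 16% of all genes) and 1, Ugt2b38, wholly below (against 2.18%). The count of 4 became 1 without LF knockout replicate 2 or without replicate 3, and 7 without HF knockout replicate 2. Of all genes 646 became 269, 252 and 997 in the same fits.

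Knockout against floxed on HF had the most members at an unadjusted edgeR p under 0.05: 10 of 46 (21.7%, against 7.65% of all genes). Lower in knockout were Gstm3 (-2.10 ± 0.61), Gsta1 (-2.27 ± 1.02), Gsta2 (-2.04 ± 0.73), Mgst3 (-0.996 ± 0.42), Gstm1 (-0.88 ± 0.37), Ugt2b5 (-0.78 ± 0.34), Gsta4 (-0.66 ± 0.29), Gstm4 (-0.66 ± 0.22) and Ugt2b35 (-0.62 ± 0.24), and higher was Gstp3 (1.14 ± 0.48). Of all genes 3.06% were lower and 4.59% higher at that threshold, and the smallest edgeR adjusted p of a member was 0.598. The median was -0.45 beside 0.028 for all genes, 34 of 46 members were lower (53.4% of all genes were higher), and in FPKM 13 lay wholly below (28.3%, against 7.08% of all genes) and 0 wholly above (against 2.25%). Without HF knockout replicate 2, 13 lay wholly below (against 11.7% of all genes) and 3 wholly above (against 5.42%), the median was -0.125, 26 of 46 were lower, and 6 had an unadjusted p under 0.05: Gstm3, Gsta1, Gsta2 and Gstm4, lower, and Gstt3 and Gstm7, higher. At that threshold 3.89% of all genes were lower and 4.2% higher in the fit without HF knockout replicate 2. The count of 10 became 5 and 3 without HF floxed replicate 1 or 2, the near-identical pair. Of all genes 963 became 587 and 559 in the same fits.

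The interaction asks whether the diet difference was unlike between the genotypes. All 7 members at an unadjusted edgeR p under 0.05 (15.2%, against 9.55% of all genes) had a negative term (against 4.34% of all genes), and 0 had a positive term (against 5.21%): Gsta1 (-4.78 ± 1.5), Gsta2 (-2.89 ± 1.01), Gstm3 (-2.63 ± 0.84), Gstm2 (-1.36 ± 0.52), Mgst3 (-1.30 ± 0.59), Ugt1a6a (-1.001 ± 0.40) and Ugt2b35 (-0.75 ± 0.34). The smallest edgeR adjusted p was 0.423, and the median of the members was -0.55 beside 0.047 for all genes, of which 54% had a positive term against 16 of 46 members. Without HF knockout replicate 2 the median was -0.20, and Gsta1, Gsta2, Gstm2, Gstm3 and Ugt1a6a still had a negative term at an unadjusted p under 0.05, now with Ugt3a1 (negative) and Gstm7 (positive). Of all genes 5.59% had a negative and 6.47% a positive term at that threshold in the fit without HF knockout replicate 2. The count of 7 became 4 without LF floxed replicate 2 and 14 without HF knockout replicate 3. The count of all genes, 1202, became 1015 and 1772.

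**Figure D2:**
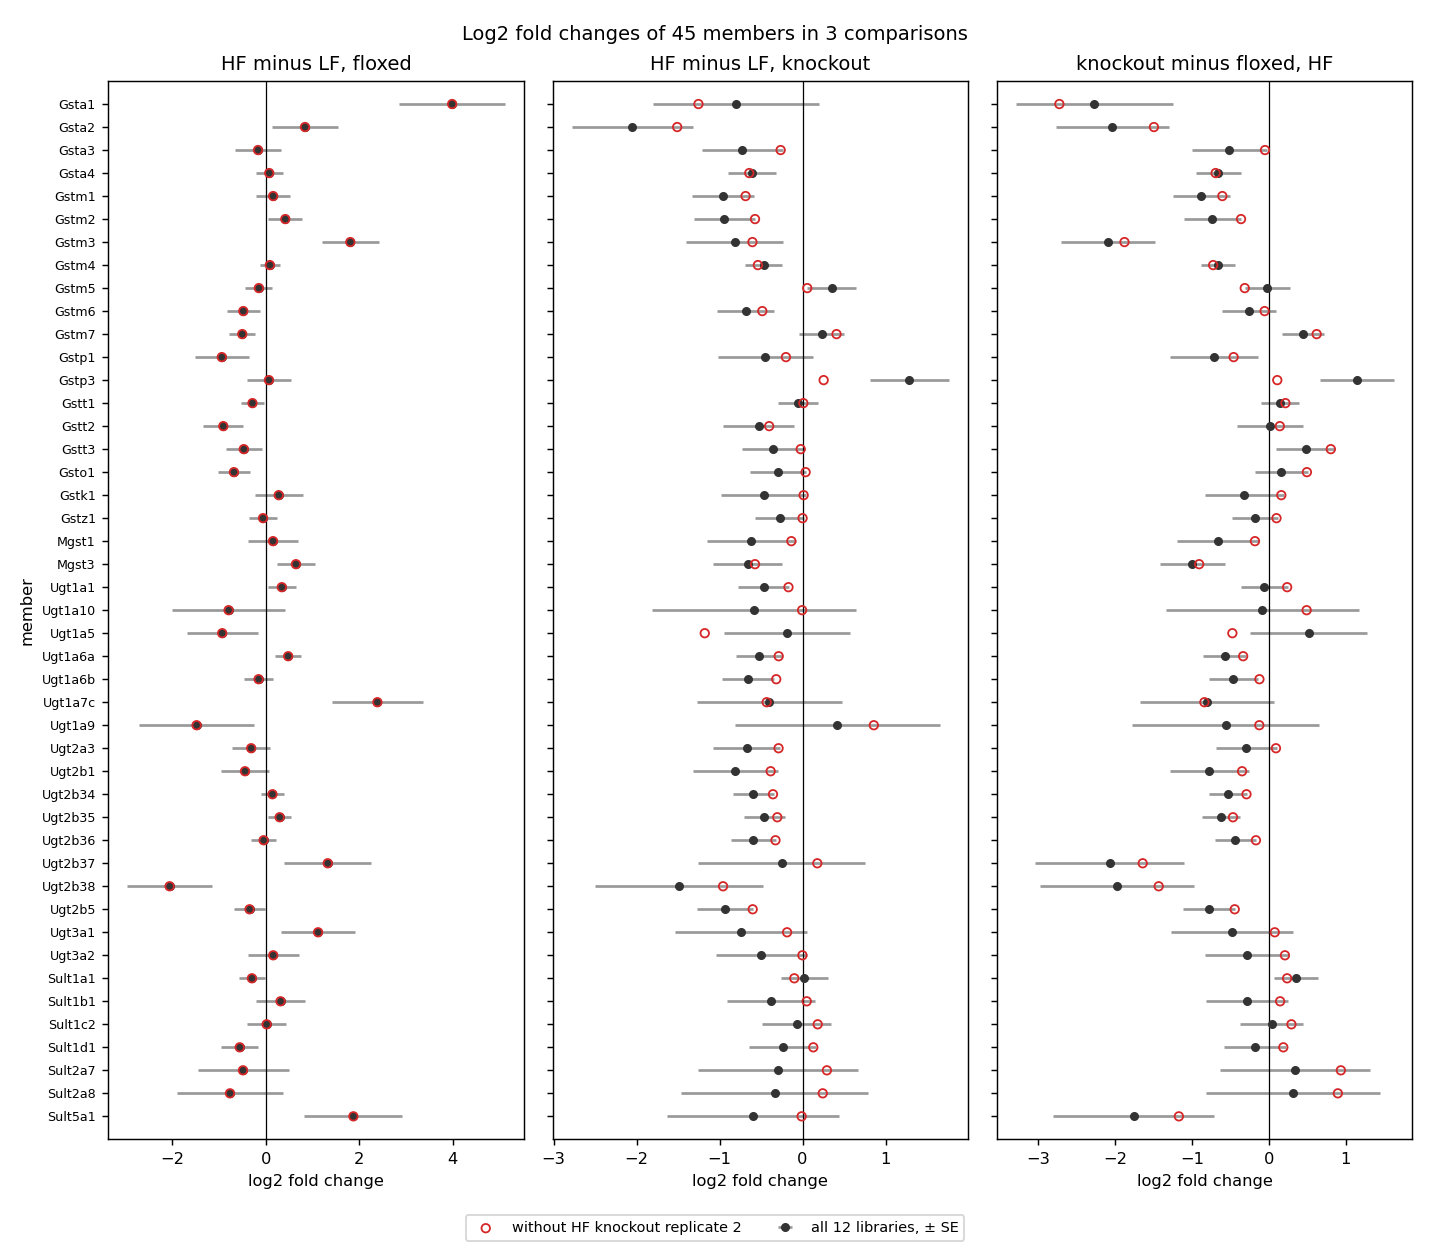
Log2 fold change (x axes) of 45 members (y axis; Gstp2, listed at 0 in LF floxed, is left out) in 3 comparisons. Filled points with bars are edgeR estimates ± SE from all 12 libraries and open circles are the estimates without HF knockout replicate 2, which lie nearer to 0 for most members in the panels of HF against LF in knockout and of knockout against floxed on HF; Gsta1 reaches 3.99 in the first.

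The alpha class holds the inducible Gsta1 and Gsta2, the abundant Gsta3, and Gsta4, which acts on the lipid peroxidation product hydroxynonenal. Gsta1 stood at 1.40, 0.78 and 4.81 FPKM in LF floxed replicates 1 to 3, 63.7, 72.3 and 4.12 in HF floxed, 5.30, 21.5 and 18.7 in LF knockout and 0.56, 13.8 and 12.7 in HF knockout. The high HF floxed values were those of the near-identical replicates 1 and 2, and replicate 3 lay within the LF floxed range. The HF floxed group mean was 46.7 ± 37.1 (SD, n = 3) against 2.33 ± 2.17 in LF floxed, which gave the log2 fold change of 3.99. Over the 23 alternative settings that difference lay between 3.31 and 5.06, with edgeR, DESeq2 or limma adjusted p from 0.0179 to 0.886. The lowest of these, from edgeR, came without HF floxed replicate 3 and HF knockout replicate 1, a setting chosen after seeing the data. Every LF knockout library was above every LF floxed library for Gsta1, as for 16% of all genes, with a log2 fold change of 2.52 (edgeR adjusted p = 0.929).

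Gsta2 was at 9.01, 4.17 and 18.2 FPKM in LF floxed, 28.1, 24.1 and 17.8 in HF floxed, 17.2, 23.9 and 25.2 in LF knockout and 3.07, 0.57 and 12.6 in HF knockout. These last 3 values lay below all libraries of LF knockout and HF floxed, as for 5.98% and 7.08% of all genes. The log2 fold changes against LF knockout and HF floxed were -2.05 (edgeR adjusted p = 0.346) and -2.04 (0.600). Without replicate 2 of HF knockout these were -1.51 and -1.495. Gsta1 and Gsta2 shared 44.6% and 44.8% of their 50-base transcript stretches with each other, so how reads were divided between them is uncertain, yet their values went apart in places: HF knockout replicate 2 had 13.8 FPKM of Gsta1 and the lowest Gsta2 value of all.

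Gsta3 varied little outside HF knockout. It lay between 807 and 877 FPKM in LF floxed, between 890 and 915 in HF floxed and between 983 and 994 in LF knockout, and it stood at 598, 149 and 1012 in HF knockout. The HF knockout replicates held both the highest and the 2 lowest of the 12 values, and the log2 fold change against HF floxed, -0.51, was -0.05 without replicate 2. Gsta4 was at 40.4, 34.1 and 90.5 FPKM in LF floxed, 77.6, 70.1 and 60.8 in HF floxed, 62.3, 62.8 and 63.2 in LF knockout and 35.6, 44.5 and 40.8 in HF knockout. All 3 HF knockout values lay below those of LF knockout and HF floxed (as for 5.98% and 7.08% of all genes), and replicate 2 was here the highest of its group.

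**Figure D3:**
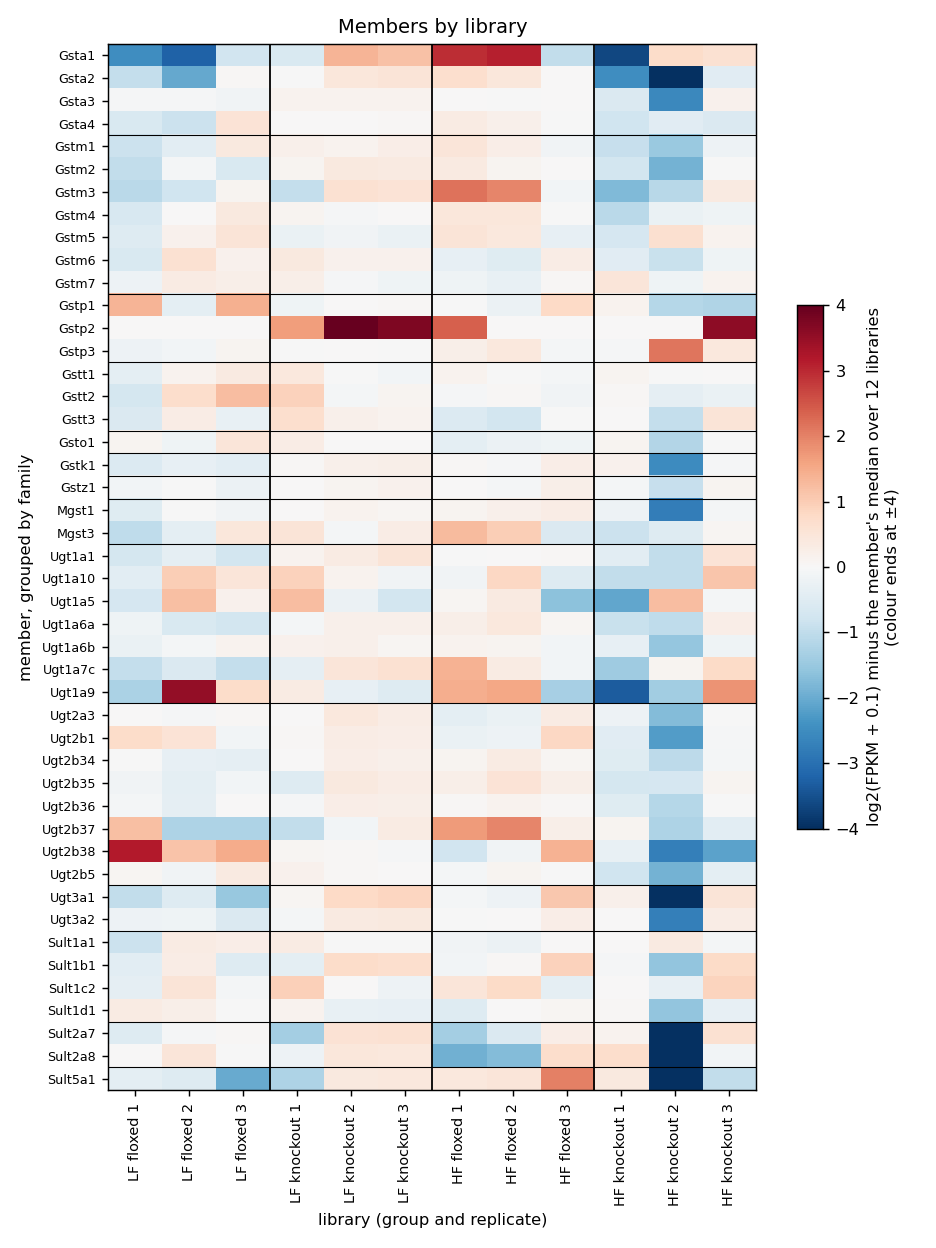
Each row is a member, grouped by family, and each column a library; colour is log2(FPKM + 0.1) minus the member's median over the 12 libraries (red above, blue below, ending at ±4). The column of HF knockout replicate 2 is blue for most rows, and Gsta1 and Gstm3 are red in HF floxed replicates 1 and 2 and not in replicate 3.

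In the mu class Gstm1, the main hepatic member, was at 985, 1320 and 2336 FPKM in LF floxed, 2490, 2150 and 1600.3 in HF floxed, 2031, 1977 and 2127 in LF knockout and 929, 638 and 1552 in HF knockout. Every HF knockout library was below every LF knockout and HF floxed library (as for 5.98% and 7.08% of all genes), while LF floxed overlapped all groups. The log2 fold change of HF knockout against HF floxed was -0.88 (edgeR adjusted p = 0.624), and -0.61 without replicate 2. Gstm2 was at 55.5, 103 and 72.4 FPKM in LF floxed, 141, 118 and 110.3 in HF floxed, 119, 143 and 139 in LF knockout and 66.1, 29.5 and 109 in HF knockout. HF knockout lay below LF knockout without overlap (as for 5.98% of all genes), and below HF floxed (7.08%) by the small margin of 109 to 110.3 FPKM.

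Gstm3 was at 31.1, 37.8 and 70.5 FPKM in LF floxed, 297, 254 and 61.8 in HF floxed, 34.2, 101 and 97.0 in LF knockout and 19.2, 30.3 and 84.1 in HF knockout. HF floxed replicates 1 and 2 were far above all other libraries, and replicate 3 of that group lay among the LF libraries, the pattern that Gsta1 also showed. In HF floxed replicates 1 and 2 the 5 stellate cell markers summed to 164 and 182 FPKM, against 36.1 to 126 in the other libraries, and without the leading gene Dcn to 35.2 and 37.6, against 4.48 to 27.8. Spp1 was at 93.96 and 103 FPKM there, against 17.7 to 46.2 outside these 2 and HF knockout replicate 2, and the other 4 cholangiocyte markers summed to 6 and 5.51, against 1.96 to 4.12. The 5 macrophage markers summed to 130 and 129 there and to between 37.3 and 230 elsewhere, and the part of these cells in the 2 genes was not tested. The difference between HF knockout and HF floxed was -2.10 (edgeR adjusted p = 0.598; DESeq2 adjusted p = 0.0491), was -1.88 without HF knockout replicate 2, and ranged from -2.81 to -1.71 over 23 settings, with adjusted p from 0.0491 to 0.991. HF against LF in floxed gave 1.81 (edgeR adjusted p = 0.306), between 1.42 and 2.21 over the settings.

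Of the other mu genes, Gstm4 had all HF knockout values (17.2, 30.0 and 32.7 FPKM) below those of HF floxed (50.1, 49.4 and 36.0) and of LF knockout (39.3, 35.5 and 37.2), and lay at 23.4, 36.8 and 47.3 in LF floxed. Its difference of HF knockout from HF floxed was -0.66 with HF knockout replicate 2 and -0.73 without it. Of all genes 7.08% had HF knockout wholly below HF floxed, and 5.98% wholly below LF knockout. Gstm5, Gstm6 and Gstm7 averaged 9.16 to 12.8, 53.4 to 88.0 and 43.2 to 53.4 FPKM in the 4 groups, and none had an unadjusted edgeR p under 0.05 in the fit of all 12 libraries.

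The pi class was uneven among libraries of the same group. Gstp1, the leading pi enzyme of mouse liver, was at 5946, 1760 and 6124 FPKM in LF floxed, 2286, 1951 and 4013 in HF floxed, 2047, 2315 and 2382 in LF knockout and 2522, 1053 and 1004 in HF knockout. The highest 2 values were LF floxed replicates 1 and 3, and LF floxed replicate 2 lay below every LF knockout library. Mean level was 4610 ± 2470 (SD, n = 3) in LF floxed and 2250 ± 177 in LF knockout, and the log2 fold change of -1.20 had an edgeR adjusted p of 0.929. A list of 12 male-biased liver genes outside the members rested mostly on Mup20 and Mup7. The other 10 summed to 1740, 1380 and 960 FPKM in LF floxed, 794, 760 and 2020 in HF floxed, 613, 1070 and 1110 in LF knockout and 1240, 210 and 519 in HF knockout. The 11 measured genes of a female-biased list summed to between 8.44 and 22.6 FPKM in LF floxed and between 43.5 and 188 in the other groups, apart from 1310 in HF knockout replicate 2. Without Cyp2a4 and Cyp2b9 the other 9 summed to 7.61, 22.1 and 13.5 in LF floxed, 25.5, 27.9 and 7.22 in HF floxed, 49.7, 23.9 and 25.2 in LF knockout and 13.2, 77.3 and 36.2 in HF knockout. LF floxed then overlapped both HF groups. The part of the male-biased and female-biased genes in the pi class values was not tested. The pi class took 16 to 52.1% of the members' FPKM, depending on the library.

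Gstp3 was at 369, 400.2 and 457 FPKM in LF floxed, 501, 569 and 403 in HF floxed, 426, 429 and 420 in LF knockout and 416, 1882 and 574 in HF knockout. The value of HF knockout replicate 2 was 4.42 times the median of the other 11 libraries, and it was the library where Gstp1 was near its lowest. The log2 fold change of Gstp3 on HF in knockout, 1.29 (edgeR adjusted p = 0.353), was 0.25 without that library, and that of knockout against floxed on HF, 1.14, was 0.11. Gstp3 shared no 50-base stretch of its GENCODE transcript with another gene matched by symbol. The files may rest on another model of this gene: in HF knockout replicate 2 it had 144337.1 estimated counts at 1882 FPKM. Gstp1 had 11667.02 counts at 1053 FPKM there. Counts of Gstp3 were also not whole numbers, so its reads may have been divided with other loci and its level is uncertain. Gstp2 was listed at 0 in all LF floxed libraries and at 0.22, 3.79 and 1.22 FPKM in LF knockout, which held 62.04 estimated counts in all, at least 19.8-fold higher than the 3 counts over the LF floxed group that a 0 still allows. LF knockout replicate 2 held 44.9 of these counts, and without it the lower bound was 8.16-fold. A locus without a symbol, described in the files as glutathione S-transferase P 2, had 261, 173 and 628 estimated counts in LF floxed and 225, 71.8 and 107 in LF knockout. Gstp2 shared 64.3% of its stretches with the far more abundant Gstp1, so its counts are uncertain.

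**Figure D4:**
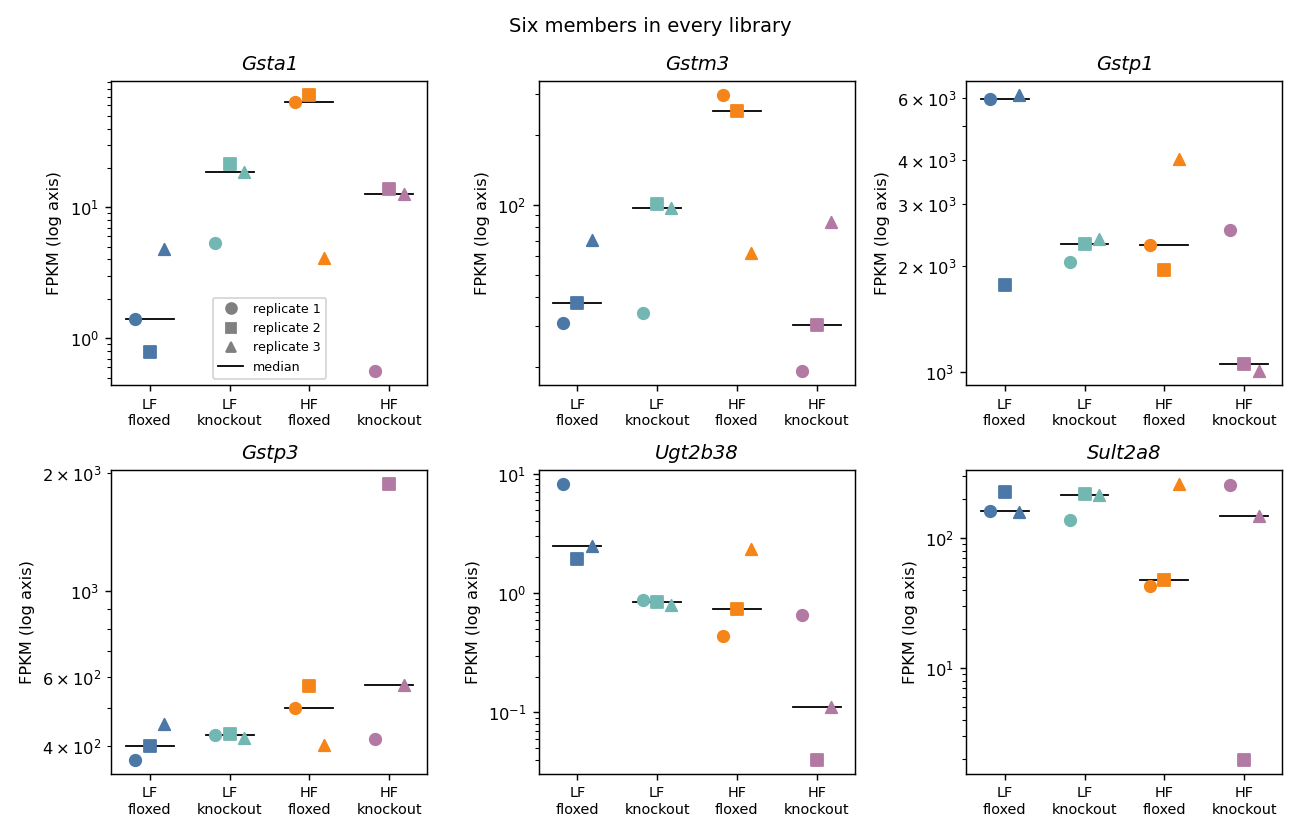
FPKM (log axes) of Gsta1, Gstm3, Gstp1, Gstp3, Ugt2b38 and Sult2a8 in the 12 libraries, with the group on the x axis, a marker shape per replicate and a line at each group's median. HF floxed replicates 1 and 2 lie together and apart from replicate 3 for Gsta1, Gstm3, Ugt2b38 and Sult2a8, and HF knockout replicate 2 is lowest for Sult2a8 (1.96) and highest for Gstp3 (1882).

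Among the smaller cytosolic classes, Gstt1, a theta enzyme that acts on small halogenated compounds, had group means of 253 to 273 FPKM and a coefficient of variation of 14.9% over the 12 libraries (15.4% without HF knockout replicate 2, against 9.36% for Gstz1). Gstz1, the zeta enzyme that also serves tyrosine breakdown as maleylacetoacetate isomerase, was between 366 and 507 FPKM in 11 libraries and at 225 in HF knockout replicate 2. Gsto1, an omega enzyme that reduces dehydroascorbate, was between 51.0 and 93.7 in 11 libraries and at 29.2 in that replicate. Gstk1, the kappa enzyme of mitochondria and peroxisomes, was at 102, 119.9 and 111 FPKM in LF floxed, 153, 144 and 181 in HF floxed, 154, 173 and 177 in LF knockout and 169, 26.0 and 146 in HF knockout. All LF floxed values of Gstk1 lay below those of LF knockout and HF floxed, as for 16% and 23.6% of all genes. The edgeR log2 fold changes were 0.42 (adjusted p = 0.943) and 0.28 (0.855). No gene of these 4 classes had an unadjusted edgeR p under 0.05 in the fit of all 12 libraries.

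Mgst1, a membrane-bound GST and peroxidase, was at 2043, 2860 and 2635 FPKM in LF floxed, 3089, 3300 and 3566 in HF floxed, 2907, 3174 and 3046 in LF knockout and 2517, 426 and 2722 in HF knockout. Every HF floxed library was above every LF floxed library, as for 23.6% of all genes, with an edgeR log2 fold change of 0.15 (adjusted p = 0.932). Every HF knockout library was below both HF floxed and LF knockout (7.08% and 5.98% of all genes). HF knockout replicate 2 was 6.82 times below the median of the others, and the log2 fold change of knockout against floxed on HF, -0.66, was -0.18 without it. Mgst3, a microsomal relative, was at 15.1, 23.7 and 42.4 FPKM in LF floxed, 74.9, 61.0 and 20.9 in HF floxed, 44.8, 29.2 and 38.2 in LF knockout and 16.9, 21.6 and 32.9 in HF knockout. Again HF floxed replicates 1 and 2 were the highest of the 12, and replicate 3 lay within HF knockout. The difference between the HF groups, -0.996, was -0.91 without HF knockout replicate 2.

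The Ugt1 members come from a single locus whose enzymes differ in their amino-terminal part and share the remaining exons, and 58.2 to 100% of their 50-base stretches occurred in another gene. The split between them is therefore uncertain. Ugt1a1, the bilirubin enzyme, was at 60.9, 77.7 and 58.8 FPKM in LF floxed, 96.7, 100.7 and 101 in HF floxed, 109, 125 and 140.5 in LF knockout and 74.2, 50.1 and 144 in HF knockout. LF floxed lay below LF knockout and HF floxed without overlap, as for 16% and 23.6% of all genes. Knockout against floxed on LF differed by 0.75 ± 0.31 (edgeR adjusted p = 0.929), and HF against LF in floxed by 0.34 (0.665). Ugt1a6b, the most abundant gene of this family, averaged 110 FPKM in LF floxed, 119 in HF floxed, 127 in LF knockout and 77.8 in HF knockout.

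Ugt1a6a, which conjugates simple phenols, was at 22.7, 16.7 and 15.3 FPKM in LF floxed, 29.9, 34.2 and 26.8 in HF floxed, 24.1, 29.3 and 29.1 in LF knockout and 13.6, 12.6 and 30.8 in HF knockout. LF floxed was again below LF knockout and HF floxed, as for 16% and 23.6% of all genes. The edgeR log2 fold changes were 0.43 (adjusted p = 0.929) and 0.48 (0.505). HF knockout held both the 2 lowest values of Ugt1a6a and a high one. Its interaction term was -1.001 (edgeR adjusted p = 0.483), and -0.76 without HF knockout replicate 2. Ugt1a7c was at 0.04, 0.08 and 0.04 FPKM in LF floxed, 0.60, 0.24 and 0.15 in HF floxed, 0.11, 0.28 and 0.31 in LF knockout and 0, 0.19 and 0.36 in HF knockout, low everywhere. Among the others, Ugt1a9 reached 51.3 FPKM in LF floxed replicate 2 against 15.7 or less elsewhere.

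The Ugt2 family conjugates steroids, bile acids and drugs, and all 8 members had a negative log2 fold change on HF in knockout livers and in knockout against floxed on HF, where 5 did not overlap in FPKM (62.5%, against 5.98% and 7.08% of all genes). When HF knockout replicate 2 was left out, 7 of 8 were negative in each, Ugt2b37 (0.18) and Ugt2a3 (0.09) being the exceptions in turn, and again 5 did not overlap (against 9.51% and 11.7% of all genes). Ugt2b5, the most abundant, was at 345, 297 and 421 FPKM in LF floxed, 315, 356 and 329 in HF floxed, 371, 344 and 331 in LF knockout and 189.7, 88.8 and 253 in HF knockout. All 3 values of that last group were the lowest of the 12. Without replicate 2 the difference on HF in knockout was -0.60 in place of -0.94, at an unadjusted p still under 0.05 (edgeR adjusted p = 0.421), and that of knockout against floxed on HF was -0.45 in place of -0.78.

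Ugt2b36, next in abundance, averaged 224 FPKM in LF floxed, 260 in HF floxed, 274 in LF knockout and 177 in HF knockout. Ugt2b34 was at 74.1, 50.3 and 97.8 FPKM in HF knockout, 112, 129 and 109 in HF floxed, 103, 124 and 117 in LF knockout and 102.5, 81.7 and 79.5 in LF floxed, so that HF knockout lay below HF floxed and LF knockout without overlap. Ugt2b35 was at 26.5, 27.0 and 47.2 in HF knockout against 51.0, 63.6 and 51.6 in HF floxed, also without overlap. Ugt2b38 was at 8.29, 1.94 and 2.48 FPKM in LF floxed, 0.44, 0.73 and 2.35 in HF floxed, 0.87, 0.85 and 0.80 in LF knockout and 0.66, 0.04 and 0.11 in HF knockout. The LF floxed libraries were above all LF knockout libraries, and HF floxed replicate 3 was again with LF floxed. Ugt2b38 is low and shared 37.4% of its stretches with other genes, so its values are uncertain.

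Ugt3a1 and Ugt3a2 belong to the family that uses other UDP sugars than glucuronate. Ugt3a2 was at 92.1, 95.3 and 71.4 FPKM in LF floxed, 107, 108 and 128 in HF floxed, 102, 136 and 140.4 in LF knockout and 107, 16.2 and 132 in HF knockout. Ugt3a1 was at 13.8, 19.3 and 9.51 in LF floxed, 25.9, 23.8 and 57.6 in HF floxed, 29.1, 48.0 and 49.6 in LF knockout and 31.3, 1.53 and 39.1 in HF knockout. For both genes LF floxed lay below LF knockout and HF floxed without overlap in FPKM, as for 16% and 23.6% of all genes. The edgeR log2 fold changes were 1.38 (adjusted p = 0.929) and 1.12 (0.585) for Ugt3a1, and 0.37 (0.953) and 0.16 (0.932) for Ugt3a2. HF knockout replicate 2 was the lowest of all for both.

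No sulfotransferase had an unadjusted edgeR p under 0.05 in the fit of all 12 libraries. Sult2a8, a bile acid sulfotransferase of mouse hepatocytes, differed widely between libraries of the same group: it was at 163, 226 and 158 FPKM in LF floxed, 42.4, 47.9 and 263 in HF floxed, 138, 219.8 and 214 in LF knockout and 258, 1.96 and 148 in HF knockout. The near-identical HF floxed pair was low, HF floxed replicate 3 was the highest of the 12, and HF knockout replicate 2 was 83.0 times below the median of the others. HF against LF in floxed gave -0.77 ± 1.14 (edgeR adjusted p = 0.809), with estimates from -2.39 to -0.35 over the settings. Sult1a1, which sulfates phenols, had group means of 135 to 158 FPKM and was highest in HF knockout replicate 2 (188).

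Sult1d1, a catecholamine sulfotransferase, averaged 26.4 FPKM in LF floxed, 21.3 in HF floxed, 20.9 in LF knockout and 16.7 in HF knockout. Sult5a1 was at 3.75, 3.47 and 1.16 FPKM in LF floxed, 6.73, 6.97 and 20.6 in HF floxed, 2.05, 6.62 and 6.71 in LF knockout and 6.60, 0 and 2.46 in HF knockout. Its HF floxed values lay above all of LF floxed (as for 23.6% of all genes) and of HF knockout (7.08%). Its log2 fold change for knockout against floxed on HF was -1.76 ± 1.05 (edgeR adjusted p = 0.720), and -1.17 without HF knockout replicate 2. Of the 13 genes that matched by symbol but stayed below the count limit, 9 were sulfotransferases. They included Sult2a1, Sult2a3, Sult2a5, Sult2a6 and Sult3a1, with at most 7 estimated counts in any library. Sult4a1 (103), Sult2b1 (44) and Sult2a2 (25.91) had their highest count in HF knockout replicate 2, and no other library passed 5 for these 3 genes.

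The steps before and after conjugation were read from lists of other genes. None of their members passed a false discovery rate of 5% in the edgeR fit of all 12 libraries. In other edgeR fits Abcc3 passed for HF against LF in floxed, with only the compared groups (adjusted p = 0.0235) and without the 2 libraries whose files are named in another form (0.0253), and Ugdh passed in the interaction without HF knockout replicate 3 (0.0419). Among 8 genes of conjugate export, 4 were higher and 0 lower at an unadjusted edgeR p under 0.05 for HF against LF in floxed, where 6.85% of all genes were higher, and the list's median was 1.03 beside -0.00067 for all genes. Abcc3, which carries glucuronides into blood, was at 7.61, 14.7 and 12.96 FPKM in LF floxed, 72.4, 67.6 and 42.8 in HF floxed, 31.3, 62.5 and 62.1 in LF knockout and 9.94, 33.6 and 65.0 in HF knockout. LF floxed lay below LF knockout and HF floxed without overlap (as for 16% and 23.6% of all genes), at differences of 1.96 ± 0.48 (edgeR adjusted p = 0.780; DESeq2 adjusted p = 0.0123) and 2.09 ± 0.49 (edgeR adjusted p = 0.206; DESeq2 adjusted p = 0.00201). Its interaction term was -2.66 ± 0.67 (edgeR adjusted p = 0.396; DESeq2 adjusted p = 0.0144). Abcg2, a canalicular exporter of sulfates, had a log2 fold change of -0.90 ± 0.30 for knockout against floxed on HF (edgeR adjusted p = 0.598). Without HF knockout replicate 2 the Abcc3 term was -2.62 and the Abcg2 value -0.74.

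Of the 12 listed glutathione genes 10 were tested, and 2, 1, 1 and 1 were higher at an unadjusted edgeR p under 0.05 in the 4 pairwise comparisons (against 6.85, 8.81, 2.58 and 4.59% of all genes), with 1 lower for knockout against floxed on LF (against 2.55%). With HF knockout replicate 2 left out, the count of higher genes was 0 for HF against LF in knockout and 1 for knockout against floxed on HF (against 6.13 and 4.2% of all genes). Chac1, a glutathione-degrading enzyme, was at 0.36, 1.27 and 1.08 FPKM in LF floxed, 5.46, 6.28 and 2.30 in HF floxed, 3.08, 4.94 and 6.02 in LF knockout and 3.61, 1.22 and 2.45 in HF knockout. LF floxed was the lowest group for it, without overlap with LF knockout or HF floxed (as for 16% and 23.6% of all genes), and the differences were 2.19 ± 0.55 (edgeR adjusted p = 0.780; DESeq2 adjusted p = 0.0275) and 2.06 ± 0.55 (edgeR adjusted p = 0.236; DESeq2 adjusted p = 0.017). DESeq2 also called its interaction (DESeq2 adjusted p = 0.026). G6pdx, which supplies NADPH, had a log2 fold change of 2.14 ± 0.65 on HF in knockout (edgeR adjusted p = 0.344), with 16.4 FPKM in HF knockout replicate 2 against 6.14 or less elsewhere, and of 1.14 without that library.

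All 6 genes of UDP-glucuronate supply were tested, and 1, 0, 0 and 0 were higher and 0, 1, 0 and 2 lower at an unadjusted edgeR p under 0.05 in the 4 pairwise comparisons (lower against 5.32, 3.38, 2.55 and 3.06% of all genes). Leaving out HF knockout replicate 2, 0 were lower for HF against LF in knockout and 3 for knockout against floxed on HF (against 2.64 and 3.89% of all genes). Ugp2, which makes UDP-glucose, was among the last 2, at -0.73 ± 0.25 (edgeR adjusted p = 0.598). Ugdh, which oxidises UDP-glucose to UDP-glucuronate, was named after its values were seen: it was at 32.7, 26.8 and 39.1 FPKM in LF floxed, 81.4, 100.6 and 43.5 in HF floxed, 51.9, 70.3 and 69.4 in LF knockout and 18.9, 18.6 and 59.6 in HF knockout, with an interaction term of -1.89 ± 0.53 (edgeR adjusted p = 0.396; DESeq2 adjusted p = 0.0493). Without HF knockout replicate 2 these values were -0.77 for Ugp2 and -1.61 for Ugdh. Of 8 genes of PAPS supply 7 were tested, and Slc35b3, a PAPS transporter of the Golgi, was higher on HF in knockout by 0.80 ± 0.24 (edgeR adjusted p = 0.344), and by 0.75 without HF knockout replicate 2. Of 13 other conjugating enzymes, 3 were lower and 0 higher at an unadjusted edgeR p under 0.05 for knockout against floxed on HF (against 3.06 and 4.59% of all genes), and 2 and 0 without HF knockout replicate 2 (against 3.89 and 4.2%).

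The 16 genes for regulators of these enzymes, Nfe2l2, Nr1i2 and Nr1i3 among them, were counted too: 1 was higher and 0 lower at an unadjusted edgeR p under 0.05 for knockout against floxed on LF (against 2.58 and 2.55% of all genes), and 0 in the other 3 pairwise comparisons. In the fit without HF knockout replicate 2, Nfe2l2 was lower at that threshold for HF against LF in knockout and for knockout against floxed on HF. Their summed level was 506 to 659 FPKM over the 12 libraries. Nr1i3 was at 1.46 FPKM in HF knockout replicate 2 and at 20.8 or more in the rest. Nqo1, a reductase used as a readout of Nrf2 and also named after its values were seen, was at 1.11, 2.19 and 1.96 FPKM in LF floxed, 9.04, 9.08 and 3.85 in HF floxed, 3.79, 5.62 and 4.39 in LF knockout and 2.84, 0.58 and 3.40 in HF knockout. LF floxed lay below LF knockout and HF floxed without overlap, as for Abcc3 and Chac1 and for 16% and 23.6% of all genes. The Nqo1 interaction term was -2.72 ± 0.74 (edgeR adjusted p = 0.396; DESeq2 adjusted p = 0.0413), and -2.25 without HF knockout replicate 2. DESeq2 also called Nqo1 for HF against LF in floxed (DESeq2 adjusted p = 0.0495).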

How the data were processed

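Total RNA from flash-frozen liver was sequenced in 12 libraries of 4 groups. Per the file headers, each deposited file has the column layout of RSEM, with expected counts (estimated counts per gene, not scaled) and FPKM computed by the authors from effective gene length and fragment number. The submitters' processing notes name the build mm9, and the sources used here name no aligner, counter or annotation. The files list no gene under 0.01 FPKM, so a gene absent from a file was taken as 0 there. The 1229 loci without a symbol took 6.65 to 17.33% of a library and stayed out of the tests.

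The members and gene lists were chosen with earlier results of these data known. After rounding, estimated counts went into edgeR 4.0.16 (R 4.3.3) with TMM factors, filterByExpr with the 4 groups (12587 genes), and quasi-likelihood F tests over all 12 libraries with 1 mean per group. Adjusted p-values are Benjamini-Hochberg values over all genes tested, from edgeR unless another tool is named, and standard errors are from the edgeR fit. The common biological coefficient of variation was 34.8%, and 52.8% within HF knockout. Group overlap, family sums and levels used FPKM. The code was tested on simulated counts.

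Members were named where they had the highest mean FPKM of their family, or an unadjusted p under 0.05 in a comparison (at most 10). Of the other lists the 2 genes of smallest p in each comparison were named. Further members, Nqo1, Ugdh and marker genes were chosen after their values were seen. Alternatives used DESeq2 1.42.0, its size factors, other filters, limma 3.58.1 on log2(FPKM + 1) and log2(FPKM + 0.1), fits of the compared groups, a block for replicate number, near-identical pairs averaged, loci without a symbol kept, and each library left out. Sharing between genes is the percentage of 50-base stretches of GENCODE transcripts (build GRCm38) also found in another gene matched by symbol. Other loci were not searched.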

Additional observations from a re-analysis of the deposited data

Results flagged for a closer look

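A locus without a gene symbol, described in the files as glutathione S-transferase P 2, lies outside the members because the choice was by symbol, and it had estimated counts in all 12 libraries. It was at 261, 173 and 628 in LF floxed replicates 1 to 3, 225, 71.8 and 107 in LF knockout, 84.6, 117 and 345 in HF floxed, and 301, 139 and 67.4 in HF knockout. The highest value, 627.79, was in LF floxed replicate 3, which also held the highest Gstp1 level, and the groups overlapped. The gene Gstp2 itself had 62.04 estimated counts over all LF knockout libraries and 0 in LF floxed. A further locus with the same description had counts in 3 libraries only, at most 55.72. How reads were split among these loci, Gstp1 and Gstp2 was not tested.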

How the results depend on the processing

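The 53 log2 fold changes followed over the alternatives, of 30 genes, kept their sign. Of all 46 members, 11 changed sign without HF knockout replicate 2 for HF against LF in knockout, 10 for knockout against floxed on HF (Ugt1a1, Gstk1, Ugt3a1 and Ugt3a2 among them) and 5 for the interaction. The median of the members for HF against LF in floxed (-0.015) took both signs. The number of members called at a false discovery rate of 5% stayed 0 except for 1 with DESeq2 for HF against LF in floxed, 1 with DESeq2 for knockout against floxed on HF, and 1 without the 2 libraries whose files are named in another form for HF against LF in floxed. Members at an unadjusted p under 0.05 numbered 4, 6, 4, 10 and 7 for HF against LF in floxed, HF against LF in knockout, knockout against floxed on LF, knockout against floxed on HF and the interaction. All genes at that threshold numbered 1532, 1534, 646, 963 and 1202 of 12587. With near-identical pairs averaged the members numbered 2, 2, 1, 4 and 2, beside 688, 767, 189, 397 and 473 of 12731 genes. Without the 2 libraries named in another form the members numbered 10, 12, 7 and 6 in the pairwise comparisons. All genes numbered 2349, 2621, 927 and 1247 of 12819 there. Fitting only the compared groups gave 9 of 44 members for HF against LF in floxed (2319 of 12077 genes). It gave 9 of 43 members for knockout against floxed on LF (1095 of 11872 genes). With limma 43 members were tested. On log2(FPKM + 1) 11 stood at that threshold for HF against LF in knockout and 17 for the interaction (957 and 1383 of 10533 genes). On log2(FPKM + 0.1) these were 12 and 17 (929 and 1373 genes). Leaving out each library gave 2 to 8, 2 to 15, 1 to 7, 3 to 13 and 4 to 14 members. All genes at that threshold then numbered 862 to 2209, 1005 to 2544, 252 to 1251, 559 to 1717 and 742 to 1772. The median log2 fold change moved with log2(FPKM + 0.1) to 0.222 for HF against LF in floxed and 0.226 for knockout against floxed on LF, and for the interaction to -0.914 with log2(FPKM + 1) and -0.938 with log2(FPKM + 0.1). On that last scale all genes shifted as well, with medians of 0.24, -0.058, 0.15, -0.14 and -0.29. Left-out libraries gave medians of -0.108 to 0.016, -0.761 to -0.232, 0.008 to 0.145, -0.637 to -0.125 and -0.72 to -0.202. The cause of these shifts was not tested.

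Whether replicate numbers pair the samples is not known. Same-numbered libraries correlated at -0.331 to 0.404 in their deviations from the group means, and libraries of different number at -0.551 to 0.55. These values cannot exclude a pairing, since each group has only 3 libraries. With the replicate block members at an unadjusted p under 0.05 numbered 3, 8, 3, 9 and 6, members called stayed 0, and of all genes 0, 0, 0, 0 and 1 were called. All genes at that unadjusted threshold numbered 1433, 1199, 557, 748 and 989 of 12587. Depth was even and limits low genes only, such as Ugt1a10, Ugt1a7c and Ugt2b38.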
